A study of Mus musculus with 6 samples.

Results

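The 10 genes described here encode chains of type VI and fibril-associated collagens, as expressed in the RPE/choroid of C57BL/6J mice. They are the rows of the deposited gene table whose symbol is Col6a1, Col6a2, Col6a3, Col6a6, Col9a1, Col9a2, Col9a3, Col12a1, Col14a1 or Col16a1. All 10 symbols were found among the 33924 genes of the table. RPE/choroid is the retinal pigment epithelium with the underlying vascular choroid, and both eyes went into each sample. There were 3 young mice, labelled 1 to 2 months, and 3 aged mice, labelled 20 to 24 months in the titles and 22 to 24 months in the time label. The labels give male sex for every mouse, but the study's methods speak of males and females and of a slightly older young group. The labels name no engineered allele and no treatment for any mouse.

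The value used for each gene is the authors' baseMean, a mean of normalized counts, in which the 6 libraries of young and aged mice are averaged together. No value per mouse was analysed here, so no SD, range or test could be given, and differences between genes are described without replicate error. For the same reason no statement is made on aging. The depth of each library is unknown here. Over all genes the means summed to 19192071 normalized counts, of which the 10 collagens held 0.374%.

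Collagens are built from 3 chains wound into a triple helix, which requires a glycine followed by any pair of residues, over and over (the Gly-X-Y repeat). Type VI collagen is assembled from an α1, an α2 and an α3 chain into beaded microfilaments that link cells to the surrounding matrix, and α4, α5 or α6 can stand in the place of α3. Fibril-associated collagens with interrupted triple helices (FACITs) do not form fibrils themselves but sit on the surface of fibrils built by other collagens. Type IX, known from cartilage and the vitreous, is assembled from α1, α2 and α3 chains on fibrils of types II and XI. Types XII and XIV are associated with type I fibrils, and type XVI belongs to the same family.

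The repeat that defines these genes can be read directly in their exons. An exon lying wholly inside the longest uninterrupted repeat is shown for the type VI chains, the type IX chains and Col12a1, the member with the highest level. Sequences are the coding strand of GENCODE transcripts on GRCm38, 5′ to 3′, and capitals mark the codons (GGN) of the repeating glycine.

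Col6a1, exon 15 of 35, chr10:76717795-76717857, minus strand: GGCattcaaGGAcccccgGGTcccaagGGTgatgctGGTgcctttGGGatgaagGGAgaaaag

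Col6a2, exon 14 of 28, chr10:76609257-76609346, minus strand: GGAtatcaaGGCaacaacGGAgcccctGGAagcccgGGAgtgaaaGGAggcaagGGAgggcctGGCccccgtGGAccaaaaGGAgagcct

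Col6a3, exon 25 of 44, chr1:90789031-90789093, minus strand: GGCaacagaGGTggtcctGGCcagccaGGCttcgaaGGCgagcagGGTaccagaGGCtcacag

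Col6a6, exon 14 of 37, chr9:105758292-105758363, minus strand: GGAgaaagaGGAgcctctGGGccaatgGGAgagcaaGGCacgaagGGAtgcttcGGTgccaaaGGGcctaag

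Col9a1, exon 30 of 38, chr1:24230883-24230954, plus strand: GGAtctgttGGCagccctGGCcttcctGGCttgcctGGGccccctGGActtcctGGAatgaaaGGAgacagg

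Col9a2, exon 24 of 32, chr4:121052358-121052429, plus strand: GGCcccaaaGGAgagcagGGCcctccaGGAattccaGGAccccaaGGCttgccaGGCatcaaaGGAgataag

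Col9a3, exon 24 of 32, chr2:180611429-180611500, plus strand: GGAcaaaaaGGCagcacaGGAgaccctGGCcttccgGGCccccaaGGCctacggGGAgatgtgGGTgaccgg

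Col12a1, exon 60 of 66, chr9:79608420-79608491, minus strand: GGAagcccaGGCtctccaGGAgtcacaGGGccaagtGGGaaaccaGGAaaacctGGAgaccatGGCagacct

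The exons shown were picked to be a whole number of 9-base steps long, so their length is not a finding. Each of them begins with a glycine codon. Across the 10 genes, 212 of 404 inner coding exons (52.5%) had a length that is a multiple of 9. The share was 66.9% in the other collagen genes and 13.7% in other protein-coding genes of the same annotation.

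The genes differed in how much of the chain the repeat takes up. Runs of at least 6 uninterrupted Gly-X-Y triplets covered 76.3% of the codons of Col9a3 and 75.9% of those of Col9a2. Col9a1, which carries an added amino-terminal region, had 175 triplets in runs against 174 in Col9a2, in a chain of 921 residues against 688. The 3 type IX chains each had 4 runs, and the longest was 113 triplets in all of them. Col6a1 and Col6a2, at 1025 and 1034 residues, had a longest run of 87 triplets each, and the runs covered 28.1% and 31.9% of their codons. Col6a3, with 3284 residues, had 7.95% of its codons in runs, and Col6a6, with 2265 residues, had 12.5%. Col12a1 and Col14a1 had the same number of triplets, 78 in 4 runs, although their chains were 3065 and 1798 residues long. Col16a1 had the most interrupted pattern, with 293 triplets in 15 runs.

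**Figure D1:**
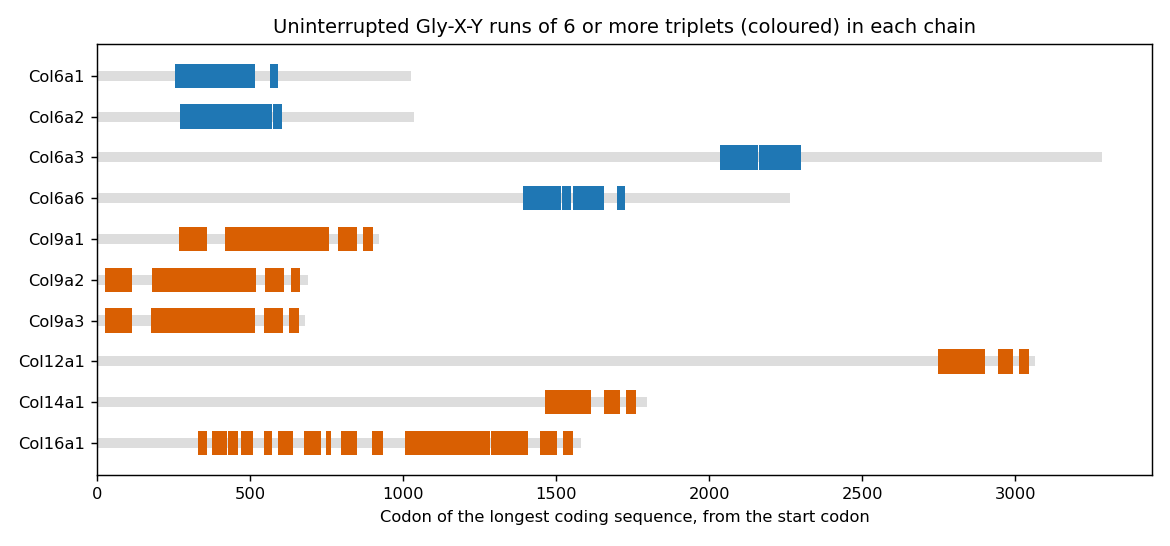
Map of the 10 chains to scale, with codon position from the start codon on the x axis. Grey bars are the longest coding sequence of each gene and coloured blocks (blue for type VI, orange for fibril-associated) are uninterrupted Gly-X-Y runs of at least 6 triplets. The runs span the middle of Col6a1 and Col6a2, lie past the middle of Col6a3 and Col6a6 and near the carboxy end of Col12a1 and Col14a1, and Col16a1 is divided into 15 runs.

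All 10 genes were detected, with means from 159 to 34675 normalized counts. The mean was at least 1000 normalized counts for 7 of them, and the share of all genes at that limit was not counted. Col6a2, the lowest of these 7, stood at percentile 97.3 of genes with a mean above 0. Among the 26681 genes with a mean above 0, the median percentile of the 10 was 98.3. Read counts rise with transcript length, so genes are compared below as normalized counts per kb of the longest transcript. The study's methods, however, derive the normalized counts from TPM values, a relative abundance already divided by transcript length. Whether the deposited means keep that division is not stated, and if they do, the undivided means, and not the levels per kb, are the ones to compare between genes. The relation of the means to length was examined in 13830 protein-coding genes. Their median mean rose from 183 for transcripts under 1000 bases to 1337 for those of 8000 bases or more. Per kb, the median fell from 241 to 136 between the same bins, so levels per kb were not free of length either. The Spearman correlation between mean and length across these genes, which are not independent replicates, was 0.30. These values do not settle which scale applies.

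The α1, α2 and α3 genes of type VI had levels per length within 2.60 times of each other under every length tried. Col6a1, on chromosome 10 at 76708792 to 76726168 (GRCm38), had a mean of 5868 normalized counts, or 1431 per kb. Col6a2, its neighbour on the same strand at 76595762 to 76623630, had 4050 normalized counts, or 825 per kb. Col6a3, on chromosome 1 at 90765923 to 90843971, had 9253 normalized counts, or 916 per kb of its much longer transcript. The level per kb of Col6a1 was thus 1.74 times that of Col6a2, and 1.46 times by coding length and 2.60 times by mean transcript length. It was 1.56 times that of Col6a3, and 2.03 and 1.19 times by those lengths, but 0.634 times in undivided means. The order of Col6a2 and Col6a3 depended on the length used: the ratio of Col6a3 to Col6a2 was 1.11 by the longest transcript, 0.719 by coding length and 2.18 by mean transcript length, and 2.28 in undivided means.

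Col6a6, the gene of the α6 chain, stood far below these genes. Its mean was 159 normalized counts, or 18.1 per kb, and its gene lies on chromosome 9 at 105687809 to 105828160. The level per kb of Col6a3 was 50.6 times that of Col6a6, and between 40.2 and 81.7 times under the other lengths. In undivided means the ratio was 58.3. Col6a5 and Col6a4, for the α5 and α4 chains, are the next collagen genes at higher coordinates on the same minus strand, and so lie upstream of it, 27.9 and 161 kb away. Col6a5 had 169 normalized counts (18.2 per kb), close to Col6a6, and Col6a4 had 7.46 (1.01 per kb). The 3 alternative chains were therefore ordered with Col6a5 and Col6a6 alike and Col6a4 lowest. Reads may pass between the first pair: 375 of the 9155 words of 31 bases in Col6a6 transcripts also occur in Col6a5. For the other members at least 99.8% of such words occurred in no other gene.

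**Figure D2:**
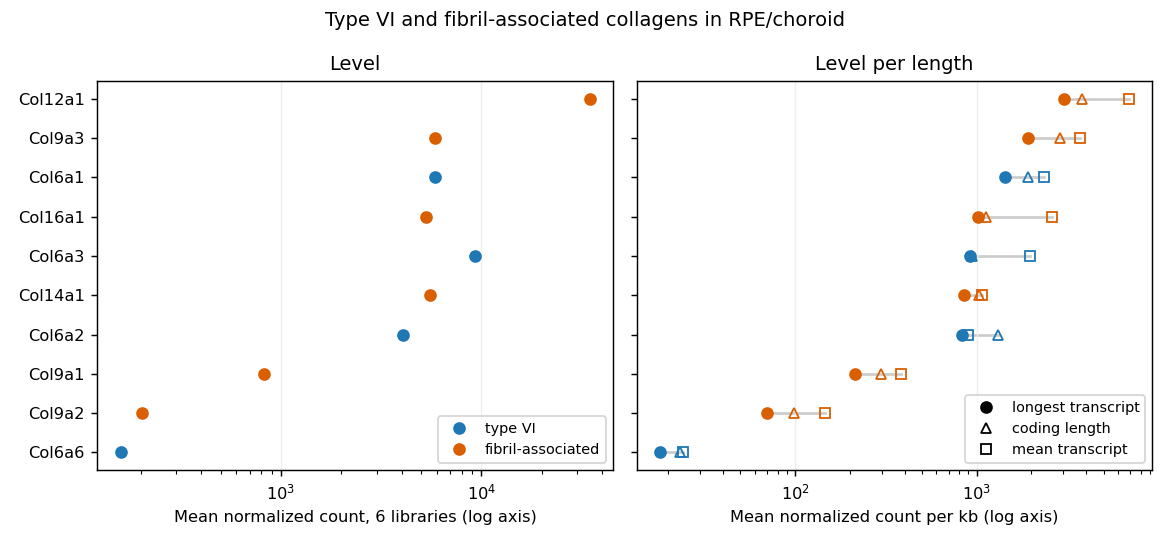
Levels of the 10 genes as the authors' mean over 6 libraries, in normalized counts (left, log axis) and in normalized counts per kb (right, log axis), with blue for type VI and orange for fibril-associated collagens. On the right, filled circles divide by the longest transcript, triangles by the coding length and squares by the mean transcript length. Col12a1 is highest and Col6a6 lowest under each, and there are no error bars because values per library were not analysed.

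The 3 genes of type IX were expressed at unequal levels. Col9a3, on chromosome 2 at 180597790 to 180622189, had 5844 normalized counts, or 1919 per kb. Col9a1, on chromosome 1 at 24177610 to 24252684, had 820 normalized counts, or 214 per kb. Col9a2, on chromosome 4 at 121039385 to 121055322, had 203 normalized counts, or 69.6 per kb. Per kb, Col9a3 was 8.97 times as high as Col9a1 and 27.6 times as high as Col9a2. The same ratios were 9.65 and 29.1 by coding length, 9.73 and 25.4 by mean transcript length, and 7.13 and 28.7 in undivided means.

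The value of Col9a1 joins 2 transcript starts that RefSeq lists for the gene on GRCm38.p6, at 24177610 and 24195203, 17593 bases apart. The later start gives a chain without the large amino-terminal domain, the form known from the eye. The gene value does not separate them. The next gene, Col19a1, lies 9.21 kb away on the opposite strand and had 64.8 normalized counts. Col9a3 overlaps the end of Tcfl5 on the opposite strand by 234 bases, and Tcfl5 had a mean of 90.3 normalized counts.

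Fibrillar partners of type IX were unequal too. Col2a1, the main fibrillar collagen of cartilage and vitreous, had 125 normalized counts, or 24.4 per kb. Col9a3 was thus 78.5 times as high as Col2a1 per kb, and Col9a1 was 8.75 times as high. Under the other lengths the first ratio was 53.9 and 102 and the second 5.54 and 10.6, and in undivided means they were 46.9 and 6.57. Col11a1, whose chain takes part in the same fibrils, had 5457 normalized counts, or 712 per kb. Col2a1 is also 1 of the 6 cartilage markers. Of the others, Matn1 and Matn3 (matrilins) had 0.627 and 119 normalized counts, Acan, the large cartilage proteoglycan, 71.9, Sox9, a transcription factor, 659 and Comp, which is also made outside cartilage, 1785.

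Col12a1 was the member with the highest level. This gene, on chromosome 9 at 79598991 to 79718831, had 34675 normalized counts and ranked 34 in the whole table. Per kb it had 3012 normalized counts, 3.52 times the level of Col14a1 and 2.96 times that of Col16a1. By mean transcript length the first of these ratios was 6.45, and in undivided means they were 6.28 and 6.54. Col14a1, for the related chain of type XIV, lies on chromosome 15 at 55307750 to 55520803 and had 5523 normalized counts, or 855 per kb. Col16a1, on chromosome 4 at 130047840 to 130099283, had 5303 normalized counts, or 1019 per kb. The last 2 were close to each other per kb, with a ratio of 1.19 by the longest transcript and 1.09 by coding length, but 2.43 by the mean over transcripts, as many transcripts of Col16a1 are short. FACIT genes outside the 10 were low: Col22a1 had 267 normalized counts (30.3 per kb), Col20a1 had 162 (32.3 per kb) and Col19a1 had 11.9 per kb. No row was found for Col21a1.

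Set among all collagens, the 10 genes held 19.0% of the summed level per kb of the 44 collagen genes with a value. The type VI members contributed 5.90% and the FACIT members 13.1%. Fibrillar collagens held 53.1%, and network and basement membrane collagens 26.8%. The median of the 10 was 885 normalized counts per kb, and that of the 34 other collagens was 181. The others include the low chains of the same types, Col6a4, Col6a5, Col19a1, Col20a1 and Col22a1, so these medians describe a chosen list.

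The collagen genes that exceeded Col12a1 per kb were Col1a2 (12072 per kb), Col1a1 (7732) and Col3a1 (6392), which form the main tissue fibrils, and Col8a2 (6190) and Col8a1 (3457), which form hexagonal networks in Descemet's membrane and vessel walls. The place of type VIII depended on the length: by mean transcript length Col8a1 had 4466 per kb against 6887 for Col12a1, and in counts not divided by length both Col8a2 (26816) and Col8a1 (17661) lay below Col12a1. Per kb, Col1a2 was 4.01 times, Col1a1 2.57 times and Col3a1 2.12 times as high as Col12a1. In undivided means (64562, 45848 and 35566 normalized counts) the same ratios were 1.86, 1.32 and 1.03. Col4a1 (1287 per kb), Col5a2 (939) and Col4a2 (935) also lay above the median of the 10, with undivided means of 8513, 6218 and 6032.

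**Figure D3:**
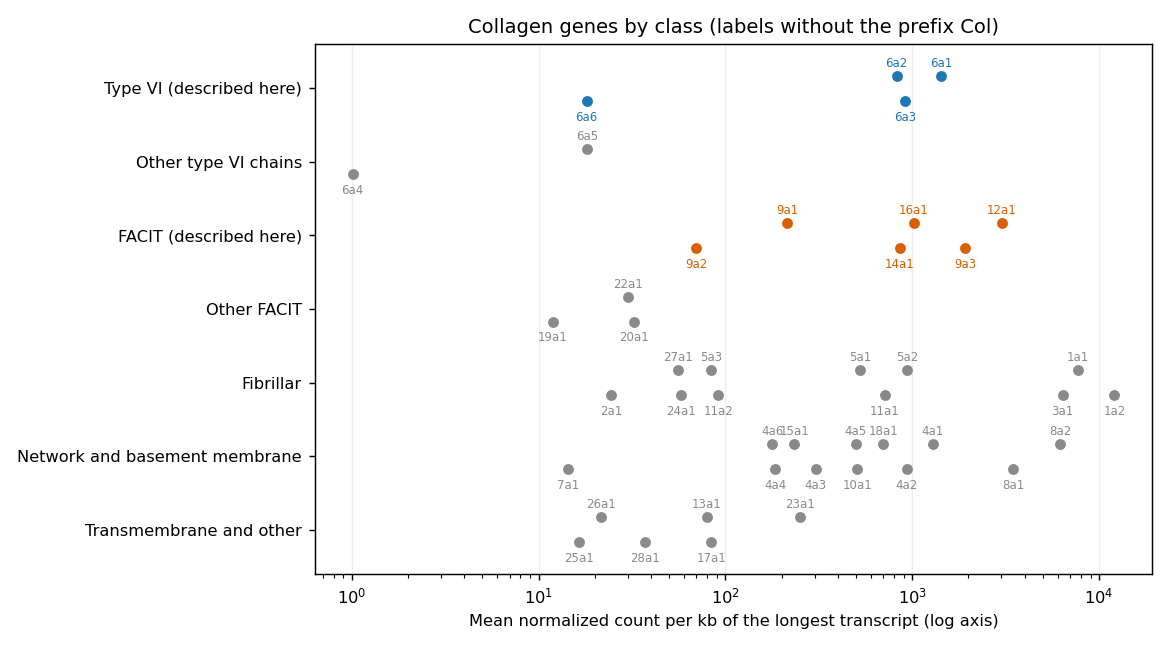
Levels of 44 collagen genes in normalized counts per kb of the longest transcript (log axis), 1 point per gene, by class. Blue and orange mark the 10 genes described and grey the others. Col12a1 at 3012 is exceeded by Col1a2, Col1a1, Col3a1, Col8a2 and Col8a1, and Col6a6 at 18.1 lies beside Col6a5.

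Genes whose products bind or make these collagens were nearly all detected, and their levels spread widely. In the whole table, 17975 of 33924 genes had at least 10 normalized counts. All 10 receptor genes did, from 147 for Itga2 to 10436 for Itgb1, the common β chain of the collagen-binding integrins. Ddr2, a receptor kinase for collagen, had 5838, and Antxr1, a type VI collagen receptor, had 3178. Among the receptors of type VI, Antxr1 was 2.42 times as high per kb as Antxr2 and 3.57 times as high as Cspg4 (NG2, a proteoglycan of pericytes). The second ratio was 9.57 by coding length and 2.31 in undivided means, where Antxr2 had 1414 and Cspg4 1374 normalized counts.

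Of 12 matrix partners, 11 were detected at that limit, and Matn1 was the exception. Dcn, for the small proteoglycan decorin that binds both fibrils and type VI collagen, was highest at 43430 normalized counts, followed by Lum at 9187 and Fn1, for fibronectin, at 9105. Per kb, Dcn was 6.47 times as high as Col6a1 by the longest transcript, 21.4 times by coding length and 10.3 times by mean transcript length. In undivided means the ratio was 7.40. All 12 genes for chain modification and folding were detected. P4hb, a subunit of prolyl 4-hydroxylase, had 8503, Serpinh1, the collagen chaperone, had 7931, and P4ha1 had 2501.

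The tissue label was checked against marker genes. RPE markers were abundant: Ttr had 99322 normalized counts, Rgr 92190, Pmel 57664, Rpe65 43745, Rlbp1 30062, Lrat 25214, Rdh5 10046, Mitf 4729 and Otx2 3848. Best1 was low, at 69.8. Melanocyte markers ran from 763 to 89145, with Dct highest, and choroidal endothelial markers from 1025 to 6377. Fibroblast markers ran from 379 to 43430, mural cell markers from 1796 to 21346 and Schwann cell markers from 227 to 2214. These values do not separate the RPE from choroidal cells that express the same genes.

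Genes on the marker lists of other tissues in and around the eye were detected as well. The rod photoreceptor genes reported here ran from 5787 normalized counts for Nrl to 13165 for Sag. Skeletal muscle genes ran from 11414 to 51830, with Myh4 highest, and lens genes from 24.0 to 1973. On the cornea keratocyte list, Kera had 397, Aldh3a1 3676 and Ptgds 68366. Which tissue the Ptgds counts came from was not tested. Which of these cells carried the collagen RNA was not tested. In a bulk sample, fewer cells of a type and less RNA per cell cannot be told apart.

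**Figure D4:**
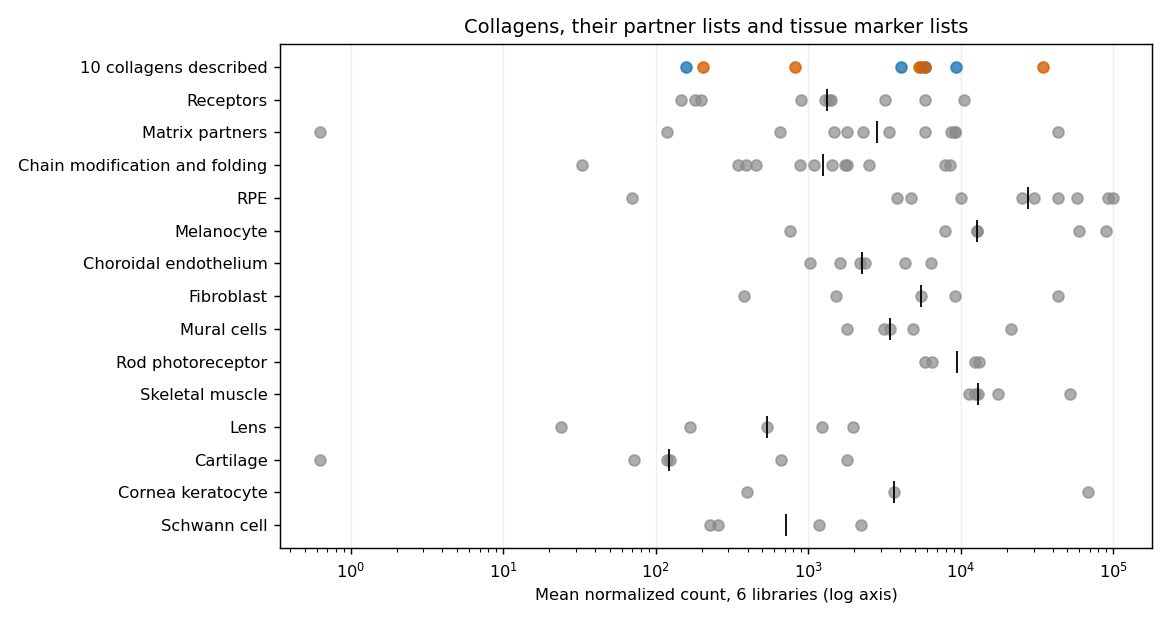
Means over 6 libraries in normalized counts (log axis), 1 point per gene. The top line holds the 10 collagens (blue for type VI, orange for fibril-associated), the lines under it 3 lists of partner genes and 11 lists of tissue markers, and black ticks are the list medians. Skeletal muscle and rod markers overlap the upper range of the collagens, and Matn1 at 0.627 stands alone at the left.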

How the data were processed

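Total RNA was sequenced from RPE/choroid of 3 young and 3 aged mice after removal of ribosomal RNA, without poly(A) selection, with a stranded kit. The authors cleaned reads with BBDuk, used STAR for alignment to GRCm38 transcripts from Ensembl, estimated TPM by Sailfish, turned these into normalized counts by total count scaling and ran DESeq2. Whether the deposited values still carry the length division of TPM is not stated. The deposited table held 1 signal per gene, baseMean, the authors' mean of normalized counts over all 6 libraries, and 0 columns that name a sample. Its other 5 columns (log2 fold change between ages, its standard error, Wald statistic, p and adjusted p) are the authors' own comparison and were not used.

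Transcript and coding lengths, exons and positions came from GENCODE M21 (GRCm38), in which 28517 symbols matched 1 gene, and start sites from RefSeq, which held an entry for 7 of the 10 genes. The authors used another release of the annotation on the same build. A listed symbol missing from the table was looked up through its RefSeq synonyms, which placed 3 (Col26a1, Colgalt1 and Colgalt2). Chst6 and Col21a1 were not matched. Glycine runs were found in the longest coding sequence with Python 3.11.15, by code checked on made sequences. The 10 genes, the gene lists and the rule for naming genes were chosen with earlier results of these data known. Named were the 10 genes, other collagens at or above the median of the 10 per kb, the 3 highest genes of each partner list and the RPE markers. Other genes named were chosen after their values were seen. They were further FACIT and type VI chains, partners of type IX, cartilage and cornea markers, and the type VI receptors Antxr2 and Cspg4. Genes at a list's ends and neighbouring genes were also among them. A marker gene on the rod photoreceptor list is not reported here.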

Additional observations from a re-analysis of the deposited data

How the results depend on the processing

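No paired analysis was possible because only a mean over all libraries was analysed, and for the same reason no library could be left out. With no replicates, a value was counted as moved where it changed by more than 1.5 times. The median level of the 10 genes, 885 normalized counts per kb, moved to 1515 when the mean length over a gene's transcripts replaced the longest transcript, and 7 of the 10 single levels moved with it, all upwards by construction. By GENCODE coding length, added after the data had been seen in place of RefSeq protein length, which was not run, it was 1071, and Col6a2 alone moved. The share of the collagen level held by the 10 genes lay between 15.7% and 22.9%. The median percentile lay between 94.7 and 98.3, but among genes with a mean of at least 10, Col6a6 and Col9a2 stood at 34.8 and 39.0 in place of 56.1 and 58.9. With a limit of 100 in place of 10, 32 in place of 33 partner genes (of 34) were detected. The share of all genes at 100 was not counted, but the median of genes with a mean above 0 was 82.1. Under each length Col12a1 was first, Col9a3 second and Col6a6 last, but in undivided means Col9a3 (5844) came after Col6a3 (9253) and Col6a1 (5868).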
